A study of Homo sapiens with 12 samples.

Results

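Chromosome 20 held 20868 of the 764268 peaks (2.73%) in 9 peak lists from ChIRP-seq in Jurkat cells. Its members are all peaks that the lists place on this chromosome. The chromosome was chosen by a count measured in the same lists, the number of regions that both probe sets found and the lacZ control did not, so that number is given as a description with no test. Jurkat is an established human T-cell leukaemia line, and all libraries came from Jurkat cells that stably expressed the long non-coding RNA SLEAR. Of the 12 samples in the labels, 3 each are input chromatin and chromatin captured with lacZ, odd or even probes. The 9 lists are those of the captured samples, and input was not analysed here. No cells without SLEAR are among them, and nothing in the labels says that the replicates came from separate cultures. The spread between replicates may therefore be technical.

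ChIRP captures an RNA from crosslinked chromatin with biotinylated oligonucleotides that pair with it, and the DNA that comes along is sequenced. Long non-coding RNAs can act at chromatin by binding proteins or DNA near or far from their own gene. Probes are numbered along the RNA and split into an odd and an even set, so that DNA pulled down by the probes themselves should differ between the sets while DNA held by the RNA should come with both. Human cells make no lacZ RNA, a bacterial message, so probes for it show what comes down without a target.

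The lists differed in length on chromosome 20 as they did elsewhere. The lacZ lists had 1255, 2351 and 692 peaks there in replicates 1, 2 and 3, the odd lists 1957, 3036 and 3133, and those captured with even probes 2709, 2470 and 3265. The shortest list was lacZ replicate 3, and lacZ replicate 2 had more peaks than odd replicate 1. As a share of each list's peaks on chromosomes 1 to 22 and X, chromosome 20 took 2.70%, 2.59% and 2.62% with lacZ, 2.95%, 2.87% and 2.67% with odd, and 2.88%, 2.74% and 2.63% with even probes. The odd lists averaged 2.83% ± 0.141 and the even lists 2.75% ± 0.125 (SD, n = 3), 0.08 percentage points apart (two-sided exact permutation test, p = 0.5, where 3 lists against 3 cannot go below 0.1). The odd and even ranges overlapped, and both reached down into the lacZ range.

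Along the chromosome, peaks of all 3 sets lay nearly everywhere except in one long stretch. No list had a peak from 26316455 to 29422767 (3.11 Mb; all positions are in hg19), where the centromere lies, and the next longest stretch without a peak was 0.156 Mb. Outside that stretch, odd lists had 45.3 ± 10.9 peaks per Mb, even lists 47.1 ± 6.82 and lacZ lists 24.0 ± 14.1 (SD, n = 3). The long arm was denser than the short arm in each of the 9 lists, by 1.02 to 1.17 times. In bins of 1 Mb, the densest odd bin averaged 60 peaks and began at 1000000, and the densest even bin averaged 68 peaks and began at 24000000. The number of peaks per bin correlated at Pearson's r of 0.81 to 0.88 between 2 odd or 2 even lists, and at 0.532 to 0.715 between 2 lacZ lists. The correlation was 0.43 to 0.67 between an odd and an even list, and 0.09 to 0.53 between a probe list and a lacZ list. All were taken over 61 bins that share the same genome sequence and mappability, and the lacZ lists hold fewer peaks per bin. These correlations are across bins and are a description.

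**Figure D1:**
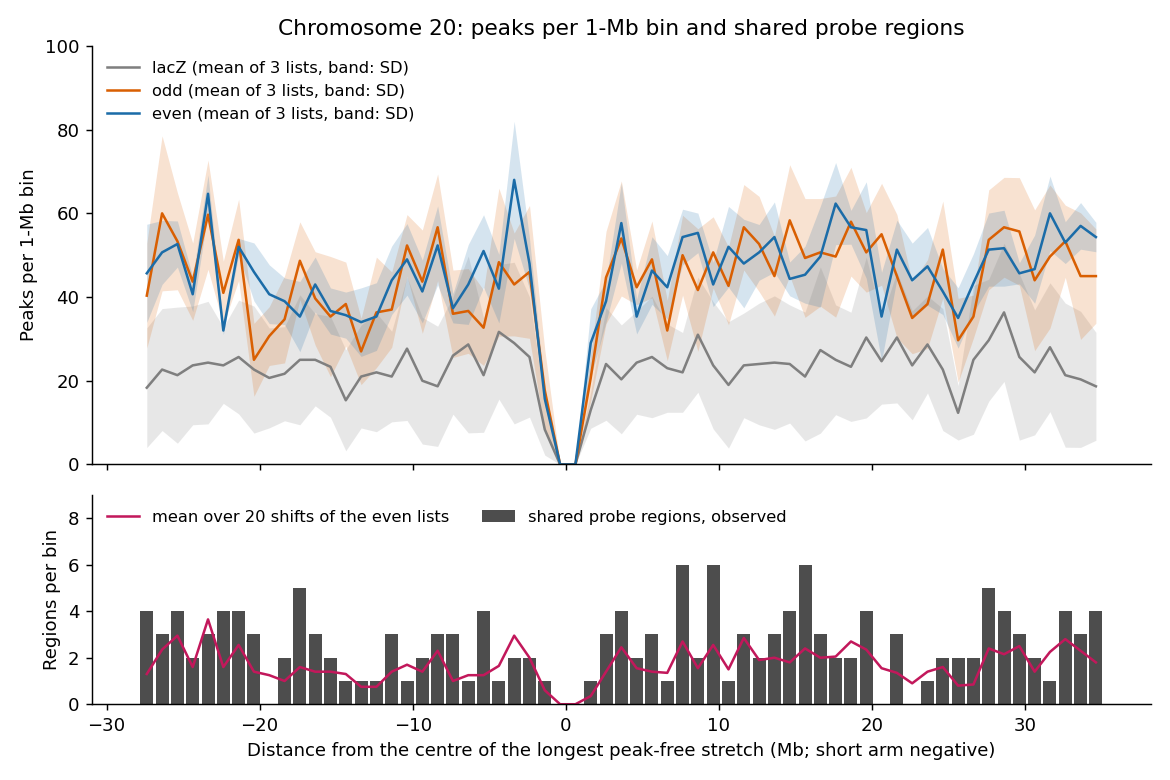
Upper panel: peaks per 1-Mb bin of chromosome 20 (y axis) against distance in Mb from the centre of the longest peak-free stretch (x axis), as the mean of 3 lists per probe set with the SD as a band. Lower panel: shared probe regions per bin as bars and their mean over 20 rigid shifts of the even lists as a line; the fullest bins hold 6 regions, and 58 of 61 bins hold at least 1.

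Peaks of the 9 lists that shared 1 base or more were joined to form regions, and a region with a peak in at least 5 of the 6 odd and even lists and in no lacZ list is called shared here. Chromosome 20 had 159 shared regions among its 9487 merged regions (1.68%), against 1.13% over chromosomes 1 to 22 and X, where 4042 of 357901 met the rule. That is 2.66 shared regions per Mb outside the peak-free stretch, the highest of 23 chromosomes. Chromosomes 19 and 21 followed with 2.0 and 1.97 per Mb. Since the chromosome was picked for this count, its rank supports nothing further. It also ranked highest in peaks of any kind, with 46.2 peaks per Mb on average in the 6 probe lists and 24.0 in the 3 lacZ lists.

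The 3 even lists were then moved rigidly along the genome by 50 to 500 kb in steps of 50 kb in both directions, which keeps their spacing and their broad density and breaks their exact alignment with the odd lists. The 20 shifts gave 107 ± 12.4 shared regions on chromosome 20 (SD over shifts), from 78 to 131. The observed 159 lay above all 20 and were 1.48 times their mean. The excess was thus about 51.8 regions, and most regions that met the rule had a counterpart in number after the lists were moved. Moving the odd lists in place of the even lists gave 81 to 126 regions, a ratio of 1.48. Shifts of 550 to 1000 kb gave 84 to 127 regions, a ratio of 1.48.

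Over the other 22 chromosomes the same ratio was 1.34. Chromosome 20 stood in place 5 of 23 by this ratio, behind chromosomes 21, 5, X and 10 with 1.55, 1.53, 1.52 and 1.49. It stood first by the density of regions after shifts, 1.79 per Mb, and by the excess over them, 0.866 per Mb. The ratio and the excess both contain the count for which the chromosome was chosen, so its places in them support nothing further. Whether the ratio of chromosome 20 differs from that of other chromosomes was not tested. On chromosomes 22 and 16 the ratio was 1.04 and 1.08, and 9 and 4 of the 20 shifts reached the observed count there.

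**Figure D2:**
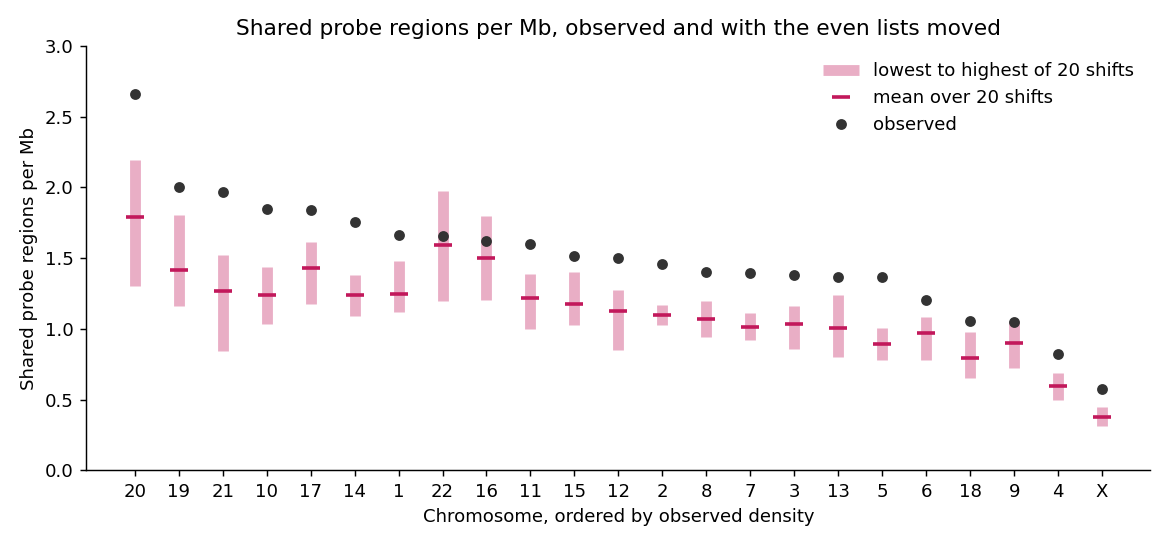
Shared probe regions per Mb (y axis) on each chromosome (x axis, ordered by the observed value). Points are the observed density, ticks the mean and bars the range over 20 rigid shifts of the even lists; chromosome 20 is highest both as observed (2.66 per Mb) and after shifts (1.79 per Mb).

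Putting lacZ lists in the place of a probe set gave a measure of the same overlap in the control. Regions of lacZ and even lists with no odd peak numbered 51 on chromosome 20, against 37 to 66 over shifts of the even lists (ratio 1.05). Regions of lacZ and odd lists with no even peak numbered 47, against 36 to 57 over shifts of the odd lists (ratio 0.980). Neither count lay outside the range after shifts. The lacZ lists are shorter, so these counts are lower by construction and only the ratios are set beside those of the probe sets. The probe ratio of 1.48 contains the count for which the chromosome was chosen, and the lacZ ratios do not. Their difference was therefore not tested, and the exchange was run on chromosome 20 alone.

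The background was also high on chromosome 20. The fold enrichment in the lists, the authors' value per peak, is the pileup over a background, and the background it implies if 1 is added to both was 1.35 ± 0.054 times the list's median over all chromosomes (SD over 9 lists). The ratio was above 1 in every list, at 1.32, 1.47 and 1.35 with lacZ, 1.30, 1.33 and 1.28 with odd and 1.35, 1.37 and 1.35 with even probes. Only 9.62% to 18.4% of chromosome 20 peaks sat within 2% of their list's lowest background, against 30.6% to 40.1% of all peaks. The long arm stood at 1.46 ± 0.080 and the short arm at 1.13 ± 0.0642 times the list's median (SD over 9 lists). Chromosomes 17, 19 and 22 had ratios of 1.32 to 1.57 over the 9 lists and densities of 1.84, 2.0 and 1.66 shared regions per Mb. The part of the background in the density of shared regions was not tested.

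Both arms held an excess. The short arm had 65 shared regions, against 33 to 61 over shifts (ratio 1.47), and the long arm 94, against 45 to 78 (ratio 1.49). The regions were spread over 58 of the 61 bins with peaks, with a median of 3 per bin. The fullest bins held 6 regions and began at 35000000, 37000000 and 43000000. After shifts the fullest bin held 5 to 8 regions, and in 10 of 20 shifts it held at least 6, so bins as full as these also arose with the lists moved. Neighbouring shared regions lay a median of 283 kb apart. Only 3 pairs lay within 5 kb of each other, and these were picked out after their values were seen. They were at 55742718 to 55743574 and 55744319 to 55745097, at 37730662 to 37731967 and 37733083 to 37734206, and at 22441127 to 22441876 and 22443793 to 22444778.

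Of the 159 shared regions, 93 had a peak in all 6 probe lists. The other 66 lacked a peak in 1 list, which was odd replicate 1 in 29 and even replicate 2 in 17 of them, the shortest lists of their sets. Regions with 6 lists had a median length of 945 bases and a median percentile of pileup of 70.6, averaged over the lists with a peak. The percentile ranks a peak's pileup among all peaks of its own list, so it does not depend on the scale of the list's pileups. It does depend on how many weak peaks the list holds. Regions with 5 lists, just inside the rule, had a median length of 722.5 bases and a median percentile of 57.0. The 87 regions with 4 lists and no lacZ peak, just outside it, had 730 bases and 59.1. In 13 other regions at least 5 probe lists and a lacZ list had a peak.

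Within shared regions the peaks were higher and longer than the other chromosome 20 peaks of the same list. Their median pileup was 37, 60 and 35.5 fragments in odd replicates 1, 2 and 3, against 28, 35.5 and 22 in the other peaks. In even replicates 1, 2 and 3 it was 38, 41 and 30.5 against 33, 37 and 22. Pileups are raw coverage, and in this paragraph they are compared only within a list. Where odd and even lists are set against each other below, the percentile is the measure that does not depend on the scale of pileups. Median lengths were 466 to 506.5 bases in shared regions and 334 to 399 bases elsewhere. Because longer peaks overlap others more readily, and recurrence in 5 lists favours high peaks, this is a description of what the rule keeps. The implied background in shared regions was 1.03 to 1.05 times that of the other peaks. Regions with a peak in all 3 odd lists and in no other list had a median percentile of 69.5 in the odd lists, and those in all 3 even lists alone 68.4 in the even lists, while shared regions had 68.1 and 63.2.

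Relative to the median pileup of the list's own chromosome 20 peaks, shared regions stood at a median log2 of 0.35, 0.76 and 0.69 in the odd lists and 0.20, 0.15 and 0.41 in the even lists. Odd replicates 2 and 3 lay above all even lists, and odd replicate 1 lay below even replicate 3. Like the percentile, this value depends on how many weak peaks a list holds. Each list enters only with the peaks it has in shared regions, from 130 in odd replicate 1 to 158 in odd replicate 2. The odd mean was 0.60 ± 0.22 and the even mean 0.25 ± 0.14 (SD, n = 3), 0.35 higher in odd (two-sided exact permutation test, p = 0.2, where the smallest possible is 0.1). The difference did not exceed what the spread between lists allows at this number of lists. By percentile, 92 regions ranked higher in the odd and 67 in the even lists. In 24 regions both sets were at or above percentile 75 of their lists, and in 16 both were below percentile 50.

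The highest ranked shared region by percentile lay at chr20:33403573-33404504. Its pileup was 302, 837 and 379 fragments in odd replicates 1, 2 and 3, and 141, 384 and 192 in the even replicates. The odd and even summits were 2 bases apart, and the summits of lists of the same set agreed within 4 bases. It was in the top few percent with both sets, at percentile 99.8 in odd and 97.2 in even lists. The second, at chr20:36939973-36941661, had pileups of 317, 707 and 323 with odd and 151, 201 and 137 with even probes. Here the summits lay 544 bases apart, although the 3 odd summits fell within 83 bases and the 3 even summits within 116 bases. The 2 sets thus marked neighbouring points of one merged region of 1689 bases.

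The third region, at chr20:46927305-46928249, ranked as high with even as with odd probes, at percentile 96.9 and 95.5. Its pileup was 109, 270 and 120 with odd and 259, 219 and 127 with even probes, and 106 bases separated the summits. The region at chr20:55481850-55482664 had 223, 458 and 206 with odd and 137, 131 and 105 with even probes, at summits 22 bases apart. The one at chr20:16932017-16932939 had 305, 607 and 288 with odd and 96, 143 and 90 with even probes, at median summits 2 bases apart. Its odd summits spanned 57 bases and its even summits 71 bases. In both regions, the percentile was higher in the odd lists, 99.0 and 99.6, than in the even lists, 93.1 and 91.1.

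Some of the highest regions leaned to the even set by percentile. At chr20:41814143-41815089 the pileup was 85, 160 and 64 with odd and 260, 358 and 199 with even probes, at summits 88 bases apart. Its percentile was 98.6 in even and 90.1 in odd lists. At chr20:56088070-56089756 the pileup was 48, 82 and 57 with odd and 302, 548 and 250 with even probes, at summits 632 bases apart. The percentile there was 99.3 in even and 81.3 in odd lists. The regions ranked 5, 7, 9, 10 and 12 lay at chr20:18723248-18724807, chr20:6358336-6359664, chr20:20960507-20961811, chr20:30920200-30921300 and chr20:52706411-52707725. Their summits were 683, 541, 180, 353 and 597 bases apart. All 12 highest regions had a peak in all 6 probe lists, and in 3 of the 12 the sets' summits lay within 50 bases.

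**Figure D3:**
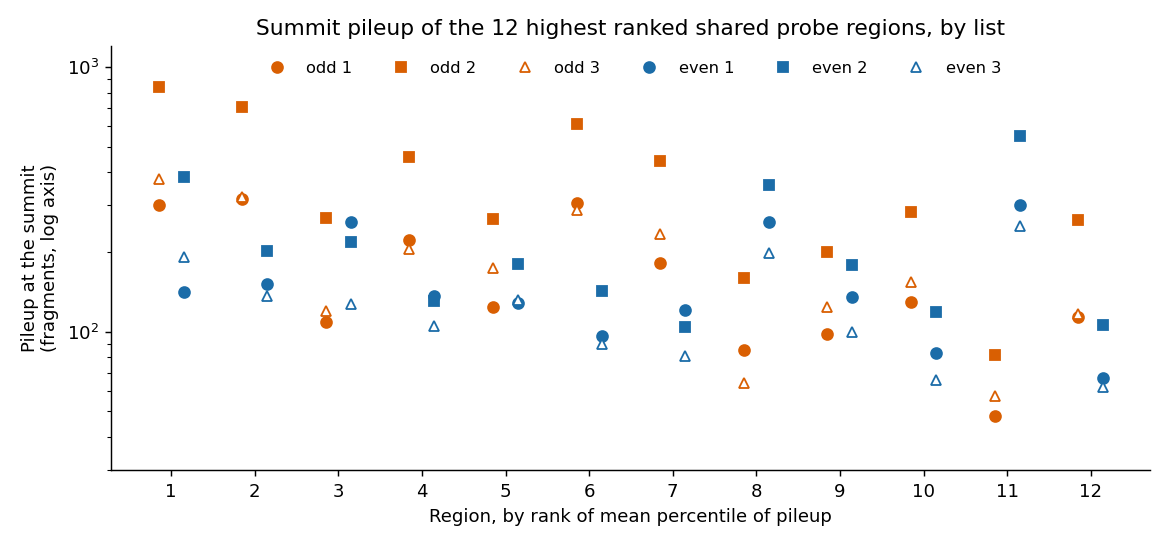
Pileup at the summit in fragments (y axis, log scale, not scaled to depth) in each odd and even list for the 12 highest ranked shared regions of chromosome 20 (x axis, by rank). Replicate 2 of the odd set is highest of the odd lists in all 12; the region ranked 1 runs from 141 to 837 fragments.

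At the low end of the ranking were regions with few fragments in every list. The 3 lowest, at chr20:58214921-58215537, chr20:47760062-47760366 and chr20:41853385-41853818, each had a peak in 5 lists, with pileups of 8 to 23 fragments. Even so, the median odd and even summits in the second of them lay 7 bases apart. The odd summits there spanned 62 bases and the even summits 40 bases. At the other extreme of distance, the summits at chr20:60358409-60360829 were 1720 bases apart. There the 3 even summits themselves spread over 1799 bases, so the lists of that set had chosen different points. The next largest distances were 847 bases at chr20:29955211-29956506 and 777 bases at chr20:601031-602200, where the lists of each set agreed within 103 bases.

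The bin from 35000000 to 35999999 held 6 shared regions of mixed strength, and was the first of the 3 fullest bins. The highest, at chr20:35985544-35986582, had pileups of 66, 210 and 76 with odd and 33, 42 and 43 with even probes, at summits 62 bases apart. The one at chr20:35500789-35501578 had 102, 260 and 114 in odd lists, 13 and 10 in even replicates 1 and 3 and no peak in even replicate 2, with summits 38 bases apart. At chr20:35001570-35002159 the even lists ranked higher, at percentile 75.7 against 8.42 in the odd lists. The pileups there were 53, 50 and 60 with even probes and 13 and 8 in odd replicates 2 and 3. The remaining regions of the bin were at chr20:35095948-35096862, chr20:35413841-35414380 and chr20:35426773-35427211, with mean percentiles of 65.9, 55.3 and 33.9.

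Summit distances were not part of the rule for shared regions. Between 2 lists of the same set, the median distance within shared regions was 23.5 to 27 bases, and 95.3% to 98.1% of summits were within 100 bases. Between an odd and an even list the median was 237 to 261.5 bases, and 23.9% to 29.5% were within 100 bases. By the median summit of each set, 44 of the 159 regions (27.7%) had summits within 100 bases, against 13.3% to 25.8% after shifts of the even lists. On the other chromosomes the share was 32.3%, against 17.1% to 19.4% after shifts. Chromosome 20 ranked 19 of 23 in this share. The exact 95% binomial interval for its 27.7%, 20.9% to 35.3%, holds the value of the other chromosomes. This interval treats regions as independent and covers counting error only. Regions are not replicates, and whether the share differs between chromosomes was not tested.

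The excess over shifts was largest in ratio where the summits met. Within 50 bases there were 30 regions, against 9.45 on average and at most 15 over the 20 shifts, a ratio of 3.17. Beyond 50 and up to 100 bases there were 14, against 5 to 20, and beyond 100 and up to 200 bases 21, against 12 to 26, so neither band stood outside the range after shifts. Beyond 200 and up to 500 bases the 70 regions again lay above all shifts, which gave 29 to 66 (ratio 1.43). Over 500 bases there were 24, and 1 of the 20 shifts reached that number. By number, the bands within 50 bases and from 200 to 500 bases each held about 21 regions more than the mean over shifts, 20.6 and 21.2. The bands divide the count for which the chromosome was chosen. Within 50 bases lay 18.9% of its shared regions, and 820 of 3883 on the other chromosomes. Bands after shifts are not given for those chromosomes, and whether the bands differ between chromosomes was not tested.

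**Figure D4:**
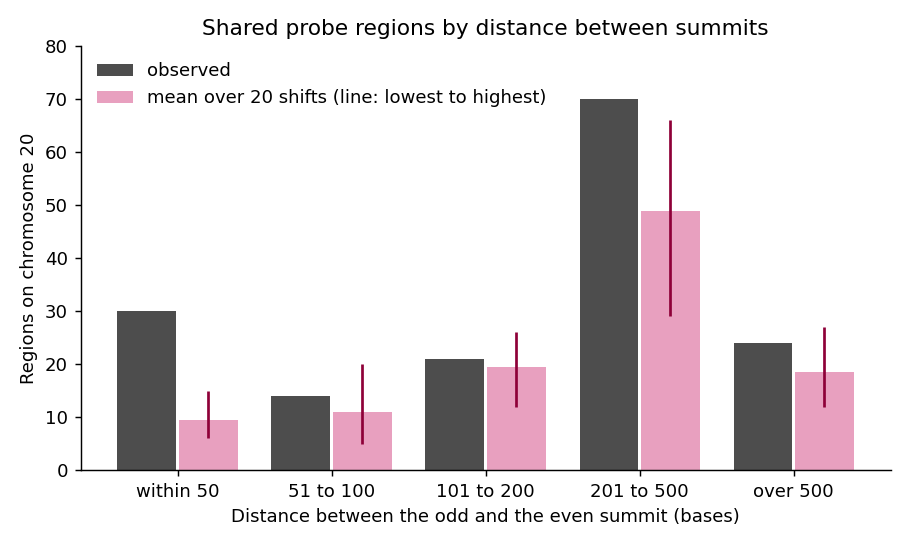
Number of shared regions on chromosome 20 (y axis) by distance in bases between the odd and the even summit (x axis), as observed and as the mean over 20 rigid shifts of the even lists, with lines from the lowest to the highest shift. The observed bar stands above the whole line within 50 bases (30 against at most 15) and from 201 to 500 bases (70 against at most 66).

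Among the 30 regions with summits within 50 bases were some of the highest peaks of 1 probe set, which were picked out after the values were seen. In 13 of the 30 at least 1 set was at or above percentile 95, against 21 of the 129 regions with summits farther apart. The other set was below percentile 50 in 5 of the 13 and in 3 of the 21. The median percentile of the higher and of the lower set was 92.3 and 54.9 in the 30 regions and 79.8 and 45.7 in the 129, so the sets lay about as far apart in both. Only the highest ranked region reached percentile 95 with both sets among the 30. At chr20:61338772-61339719 the even pileups were 631, 1059 and 510, the highest shared-region values in the even lists, while odd replicates 2 and 3 had 19 and 12 and odd replicate 1 no peak. By the median of each set the summits there lay 1.5 bases apart, while the odd summits of replicates 2 and 3 spanned 79 bases. At chr20:42804634-42805552 the even lists had 531, 841 and 384 and odd replicates 2 and 3 had 22 and 16, with summits 2 bases apart. At chr20:7224975-7225951 the even lists had 414, 729 and 377 and odd replicates 2 and 3 had 18 and 10.

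The reverse also occurred. At chr20:58727988-58728897 the odd pileups were 338, 869 and 422, the highest shared-region values in the odd lists, and the even pileups 28, 80 and 50, with summits 23 bases apart. At chr20:4488576-4489491 the odd lists had 325, 724 and 320 and the even lists 40, 72 and 27, with summits 17 bases apart. At chr20:929196-930071 the odd lists had 153, 297 and 151, and even replicates 2 and 3 had 28 and 22, with summits 4.5 bases apart. Over all 159 regions the mean percentile in odd lists was nearly unrelated to that in even lists (Pearson's r = 0.01, Spearman's rho = 0.04, across regions, given as a description). Only regions kept by a rule that needs peaks of both sets enter these values. After shifts 78 to 131 regions also met that rule, and the correlation over those is not given here. On the other chromosomes 434 of 820 shared regions with summits within 50 bases had at least 1 set at or above percentile 95, and 7 had both. The other set was below percentile 50 in 312 of those 434, and the difference from chromosome 20 was not tested.

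**Figure D5:**
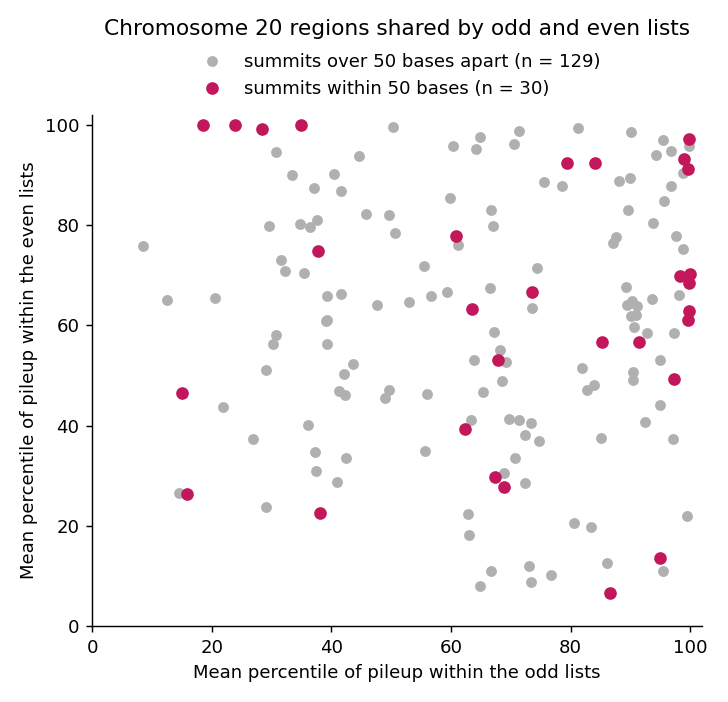
Mean percentile of pileup within the even lists (y axis) against that within the odd lists (x axis) for the 159 shared regions of chromosome 20; each point is a region, coloured by whether the sets' summits lie within 50 bases. The 30 coloured points include regions near the upper left and right edges, where 1 set is above percentile 95 and the other below 75.

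Starting from strong peaks, a comparison added after the values were seen, the meeting of summits was rare in absolute terms. On chromosome 20, 152 regions had a peak in all 3 odd lists with a mean percentile of at least 95. In 10 of them (6.58%) a peak found in at least 2 even lists had its summit within 50 bases, against 0 to 3 with the even peaks moved. No lacZ peak found in at least 2 lists did so, against 0 to 2 with the lacZ peaks moved. Of the 176 regions with strong even peaks, 5 (2.84%) were met by an odd summit, against 0 to 2 after shifts, and 2 (1.14%) by a lacZ summit, against 0 to 1. Of 67 strong lacZ regions, 1 was met by an odd and 1 by an even summit, with up to 1 and up to 2 after shifts. In the other odd regions, below percentile 95, 16 of 1544 (1.04%) were met by an even summit, against 4 to 12 after shifts. On the other chromosomes 307 of 4199 strong odd regions (7.31%) were met by even and 5 (0.119%) by lacZ summits, against 6 to 21 and 4 to 14 after shifts. Of 4579 strong even regions there, 163 (3.56%) were met by odd summits, against 9 to 28, and 16 (0.349%) by lacZ summits, against 3 to 13, so the lacZ count also lay above all shifts. The lacZ lists hold fewer peaks, and shifts of the lists allow for that.

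Regions kept out of the shared ones by a lacZ peak alone numbered 13 on chromosome 20, and 3 of these 13 had a peak in all 9 lists. The same counts on the other chromosomes are not given here. Ranked first of the 13, the region at chr20:31984087-31985438 had pileups of 102, 276 and 54 with lacZ, 61, 142 and 92 with odd and 118, 131 and 108 with even probes. All 3 sets were thus in the upper part of their lists there. At chr20:62512774-62514135 only lacZ replicate 2 had a peak, of 14 fragments, against 32, 59 and 28 with odd and 258, 227 and 162 with even probes. At chr20:44668789-44669624 lacZ replicates 1 and 2 had 12 and 15 fragments, odd lists 225, 524 and 235, and even replicates 1 and 2 had 15 and 23. The other 2 of the 5 highest, at chr20:37962867-37963670 and chr20:23047930-23048974, had a peak of 16 and 24 fragments in lacZ replicate 2 alone. Of the 159 shared regions, 16 had a lacZ peak within 1 kb of an edge, the nearest 76 bases away, and the median distance to the nearest lacZ peak was 6.16 kb. These distances are not given for other regions, so they are a description only.

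Shared regions were a small part of what recurred on the chromosome. A peak in all 3 odd lists was found in 1696 regions, of which 138 (8.14%) had a peak in at least 2 even lists and 46 (2.71%) in at least 2 lacZ lists. Of 1925 regions with a peak in all 3 even lists, 136 (7.06%) had at least 2 odd lists and 52 (2.70%) at least 2 lacZ lists. The lacZ lists are shorter, which lowers their shares, and these shares are given without values after shifts. In 1457 regions all 3 odd lists and no other list had a peak, in 1661 all 3 even lists alone and in 544 all 3 lacZ lists alone. The peaks inside shared regions made up 4.78% to 6.64% of a probe list's chromosome 20 peaks. With replicate 1 of each set left out and 3 of the 4 probe lists asked for, which also loosens the rule, 241 regions met it, with 140 to 201 after shifts (ratio 1.43).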

How the data were processed

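FastQC, Bowtie2 and the build hg19 are named for the read processing, per the submitters' processing notes. The sources used here name no peak caller, settings or control. Deposited columns are those MACS2 writes, per the file headers, with peaks listed per sample. Pileup is a signal, the coverage at the summit, deposited by the authors as whole numbers not scaled to depth. Significance was deposited as −log10 p-value and −log10 q-value, and fold enrichment is a ratio, per the file headers. Positions count from 1. The depth of each sample is unknown, which leaves the sampling error of a pileup without an interval.

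Lists were merged, shifted and tested in Python 3.11.15 with numpy 2.4.6, pandas 2.3.3 and scipy 1.17.1, and the code was tested on simulated lists. Moved peaks that passed a chromosome end were kept. A set's summit in a region is the median over its lists, each taken at its highest peak. Where a list of the set lacked a peak, the median is a midpoint between summits. A distance between sets can be smaller than the spread of summits within a set. Named regions are the 12 highest and 3 lowest by mean percentile of pileup, the 3 with the largest summit distance, those of the first fullest 1-Mb bin, and the 5 highest with a lacZ peak. The chromosome and these rules were chosen with earlier results of these data known. The main tests did not pair lists by replicate number, and whether lists of the same number share a batch is unknown. The genes at these positions were not analysed here, since the gene table at hand follows another build.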

Additional observations from a re-analysis of the deposited data

How the results depend on the processing

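The 159 shared regions on chromosome 20 became 47 where only lists covering 50% or more of a region were counted, and 51 when each list kept its peaks above the median fold. Lists cut to one length gave 22. Asking for 6 of 6 probe lists gave 93, for 4 of 6 gave 246, and for summits within 100 bases gave 44. Leaving out replicates, of all sets (3 of 4 probe lists) or of 1 set, gave 159 to 241, with a looser rule by construction. The ratio to rigid shifts was 2.15 with summits within 100 bases, 1.44 above the median fold, and 1.43 to 1.51 without each replicate. The share with summits within 100 bases was 27.7%, while 18.9% were within 50 bases and 40.9% within 200 bases; without each replicate the first was 26.5% to 31.9%. The difference between odd and even lists in the share of peaks and in relative pileup kept its direction under all alternatives run. Without each replicate it was 0.06 to 0.10 percentage points and 0.22 to 0.45 (log2). No p fell below 0.05, which 3 lists against 3 cannot reach. Lists of equal length are shorter by construction. Depth is unknown, and whether a region without a peak in a list lacked signal there was not tested.

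With a replicate block the differences were 0.08 (exact permutation p = 0.25) and 0.35 (exact permutation p = 0.25), where the smallest possible is 0.25. Over 1-Mb bins the deviations of same-numbered odd and even lists correlated at 0.05, −0.08 and 0.18. Among same-numbered pairs, only the lists numbered 3 correlated best with each other. Odd replicate 1 with even replicate 2 (0.07) and odd replicate 2 with even replicate 1 (0.10) were also each other's best match. The share of peaks on chromosome 20 fell from replicate 1 to replicate 3 in both sets. The lowest implied background was 0.7064 and 0.6915 in the odd and even lists numbered 3, and 1.115 to 1.338 in the other odd and even lists. Whether lists of the same number share a batch cannot be decided from these values.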
